A study of Mus musculus with 4 samples.

Results

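Integrins and the adaptor proteins that link them to actin were taken as 47 protein-coding genes among the 54446 genes of the deposited table. The members are all genes whose symbol begins with Itga or Itgb, which are 18 alpha subunits, 9 beta subunits and 4 related genes, together with 16 named adaptors and signalling proteins. The data come from 4 RNA libraries, each made from 100 endothelial cells, which form the inner lining of blood vessels, sorted from C57BL/6 mouse retina at postnatal day 16. Libraries control 1 and 2 are labelled with the genotype control. Libraries Zeb1-CKO 1 and 2 are named in their titles as a conditional knockout of Zeb1, a zinc-finger repressor of epithelial genes, and in their genotype field as a knockdown. The labels name no Cre line, no floxed allele and no number of mice per library, and nothing says that the libraries of a genotype came from separate animals. A p-value here therefore reflects only how far these samples differ, and that spread may be technical.

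An integrin is a cell-surface receptor built from an alpha and a beta subunit, and the pair decides which matrix protein it binds. Talins and kindlins bind the beta tail and switch the receptor on. Vinculin, zyxin, paxillin and the complex of ILK, PINCH and parvin then tie it to actin, while the kinase FAK and its partner p130Cas signal from the site. In endothelium, integrins with the beta1 or alphav subunit hold the cell to laminin, collagen and fibronectin of the vessel basement membrane and take part in sprouting. Integrin alpha6beta4 is best known from epithelia, where it anchors hemidesmosomes to laminin.

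Values are FPKM, the length- and depth-scaled fragment numbers of the deposited table, so levels can be compared between genes. From the steps between low values the depth was estimated at 20.6 M and 11.2 M fragments for controls 1 and 2, and at 22.0 M and 16.8 M for Zeb1-CKO 1 and 2, where M stands for mega and 1 fragment of a transcript of 4000 bases is worth 0.0114 to 0.0223 FPKM. Amplified reads without molecular identifiers are not independent molecules. Zeb1 itself stood at 10.7 and 11.1 FPKM in controls, against 8.66 and 7.07 FPKM with Zeb1-CKO, with limma's adjusted p at 0.235, and a value per gene does not show which part of a transcript was lost. The summed FPKM of 12 endothelial markers was 3947 to 4708 in controls, against 4496 to 4893 in Zeb1-CKO libraries. Most of each sum was Cldn5, at 2692 and 3428 FPKM in controls, against 3133 and 3500 FPKM in Zeb1-CKO libraries. Of the 12, 5 were higher in both Zeb1-CKO libraries than in both controls, 2 were lower in both and 5 overlapped. Among all fitted genes, 27.1% were higher in both and 22.3% lower in both. Markers of other cells were present too. The summed FPKM of 13 pericyte and smooth-muscle markers was 2542 and 2056 in controls, against 1676 and 1830 in Zeb1-CKO libraries. The sum over 10 epithelial markers, which an earlier analysis of these data had shown to rise, was 1.63 and 0.785 against 211 and 253. In bulk samples, fewer cells of a type and less RNA per cell cannot be told apart.

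**Figure D1:**
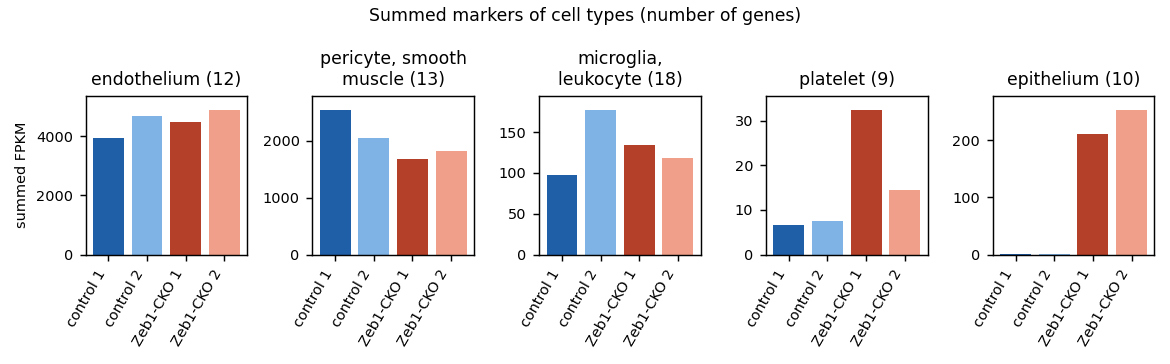
Summed FPKM (linear axis from 0) of marker lists for 5 cell types in each of the 4 libraries, with the number of genes in each list in brackets. Endothelial sums lie between 3947 and 4893, while epithelial sums are 1.63 and 0.785 in controls, against 211 and 253 in Zeb1-CKO libraries, and platelet sums are highest in Zeb1-CKO 1 at 32.4.

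In Zeb1-CKO cells, 2 members were called higher at an adjusted p under 0.05, the alpha subunit gene Itga3 and the beta subunit gene Itgb4. No member was called lower. Both encode parts of laminin receptors, alpha3beta1 and alpha6beta4. Other subunit genes of laminin receptors differed from them. Itga6 overlapped between genotypes, Itga1 and Itga7 were lower in both Zeb1-CKO libraries, and none of these was called. The common endothelial subunits Itgb1 and Itga5 and the adaptors Tln1, Ilk, Lims1, Vcl, Pxn, Zyx, Ptk2 and Bcar1 did not pass the test. Of the 47 members, 31 averaged 1 FPKM or more across all 4 libraries and were fitted with limma on log2(FPKM + 1), and 29 of those 31 did not pass an adjusted p under 0.05. Among all 13651 fitted genes, 2.23% were called higher and 0.901% lower. At an unadjusted p under 0.05, 5 of the 31 fitted members were higher and 5 lower, against 10.5% and 7.35% of all fitted genes. The median log2 fold change was 0.023 over the fitted members and 0.023 over all fitted genes, with a range of -0.66 to 1.64 over the members. Both Zeb1-CKO libraries were above both controls for 8 fitted members and below both for 12, against 27.1% and 22.3% of all fitted genes. Of the 31, Itga2b, Itga9 and Itgb3bp passed the filter with a mean under 1 FPKM in 1 genotype.

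**Figure D2:**
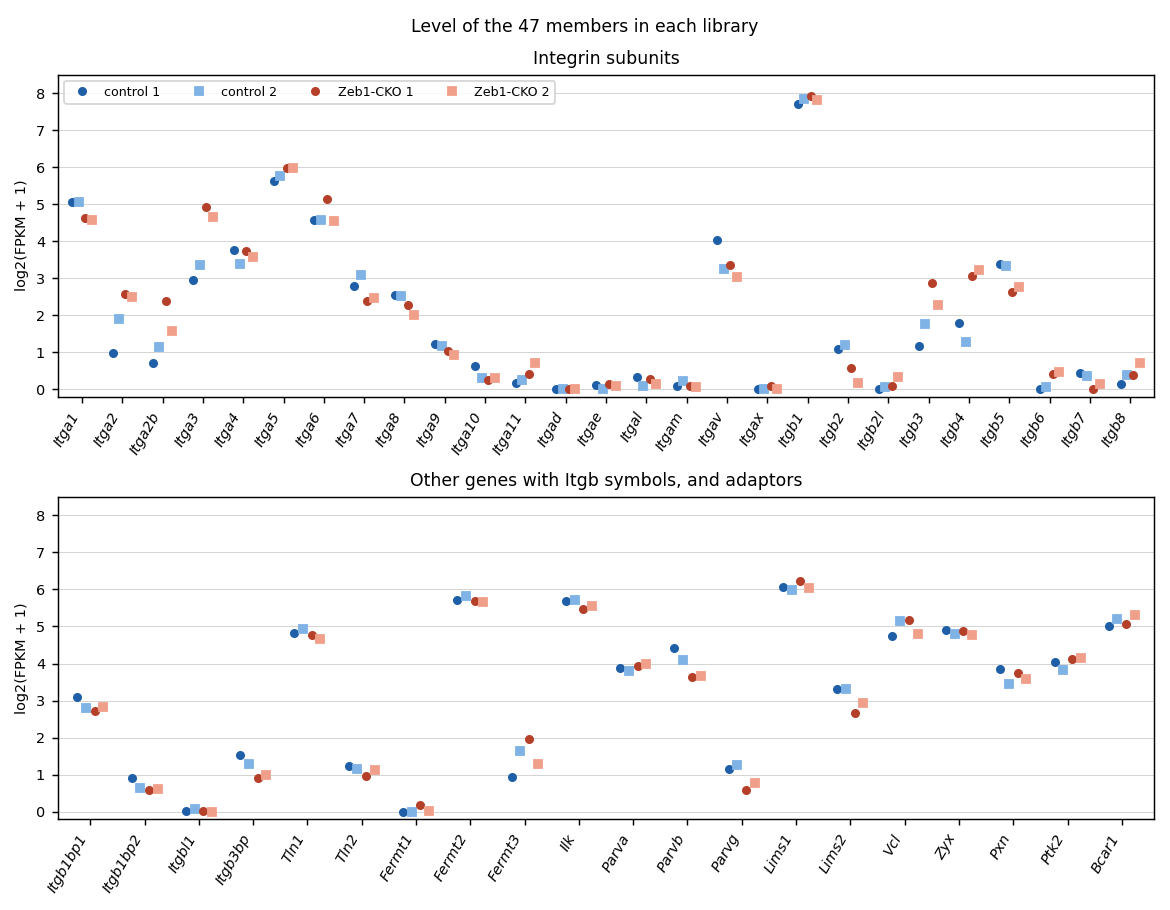
Level of each of the 47 members as log2(FPKM + 1) on the vertical axis, with 1 point per library (circles for replicate 1, squares for replicate 2, blue for control, red for Zeb1-CKO). Itgb1 stands highest at 208 to 240 FPKM, and the points of Itga3 and Itgb4 are apart by genotype.

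Itgb1 encodes the beta1 subunit, which pairs with most alpha subunits, and was the most abundant member. Its level was 208 and 229 FPKM in controls, against 240 and 223 FPKM in Zeb1-CKO libraries, and the genotypes overlapped. Its log2 fold change was 0.09 (SE 0.13, 95% interval -0.25 to 0.42), with limma's adjusted p at 0.787. Itgb1 made up 93.4% and 93.9% of the summed FPKM of the 9 beta subunits in controls, against 92.3% and 91.9% in Zeb1-CKO libraries. The beta subunit genes next in level in controls were Itgb5, then Itgb4 and Itgb3, whose control values overlapped.

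Among alpha subunits, Itga5, the fibronectin receptor subunit, was the most abundant in both genotypes. It was at 48.5 and 52.9 FPKM in controls, against 62.5 and 62.5 FPKM in Zeb1-CKO libraries, so both Zeb1-CKO values were above both controls. The log2 fold change of Itga5 was 0.30 (SE 0.13, 95% interval -0.02 to 0.61) and did not pass (limma's adjusted p 0.304). Itga6, a laminin receptor subunit and the only partner of beta4, was at 22.7 and 22.6 FPKM in controls and at 34.1 and 22.5 FPKM in Zeb1-CKO libraries. Only Zeb1-CKO 1 was high for Itga6, and its log2 fold change of 0.28 (SE 0.21, 95% interval -0.25 to 0.81) was -0.012 without that library. Itgav, which encodes the alphav subunit of vitronectin and fibronectin receptors, was at 15.4 and 8.55 FPKM in controls and at 9.20 and 7.24 FPKM in Zeb1-CKO libraries, with overlapping genotypes and an adjusted p of 0.474 by limma. Itga4, a subunit that binds VCAM1 and fibronectin, was at 9.44 to 12.5 FPKM in all 4 libraries.

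Itga3, the alpha3 subunit of a receptor for laminins, rose. Its gene lies on chromosome 11, minus strand, from 95044474 to 95076801 in mm10. It was at 6.69 and 9.28 FPKM in controls and at 29.4 and 24.1 FPKM in Zeb1-CKO libraries. Both Zeb1-CKO values were above both controls, and the lower of them was over 2 times the higher control. The mean of Itga3 was 7.99 ± 1.83 in controls, against 26.7 ± 3.69 FPKM for Zeb1-CKO (SD, n = 2 libraries each), a 3.35-fold difference. The log2 fold change was 1.64 (SE 0.20, 95% interval 1.15 to 2.12), with limma's adjusted p at 0.0173. The call ended without Zeb1-CKO 1 (log2 fold change 1.499, adjusted p 0.117) and without Zeb1-CKO 2 (1.77, adjusted p 0.0808), and without a filter on low genes (adjusted p 0.115).

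The make-up of alpha subunit transcripts is described here without a test. Ordered by mean FPKM, the most abundant alpha subunits in controls were Itga5, Itga1, Itga6, Itgav, Itga4 and Itga3, and in Zeb1-CKO cells Itga5, Itga6, Itga3, Itga1, Itga4 and Itgav. In Zeb1-CKO cells Itga6, Itga3 and Itga1 were neighbours in this order, at 34.1 and 22.5, 29.4 and 24.1, and 23.6 and 22.6 FPKM. The values of Itga6 overlapped those of both others, and those of Itga3 and Itga1 did not overlap. Itga3 made up 4.37% and 6.05% of the summed FPKM of the 18 alpha subunits in controls, against 15.4% and 14.5% in Zeb1-CKO libraries. Itga1 made up 21.2% and 21.1% in controls, against 12.4% and 13.6% in Zeb1-CKO libraries. The share of Itga5 was 31.7% and 34.5% in controls, against 32.8% and 37.6% in Zeb1-CKO libraries. The summed alpha FPKM was 153 in each control and 191 and 166 in the Zeb1-CKO libraries. A share falls when another member rises, so these shares are not independent of each other.

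**Figure D3:**
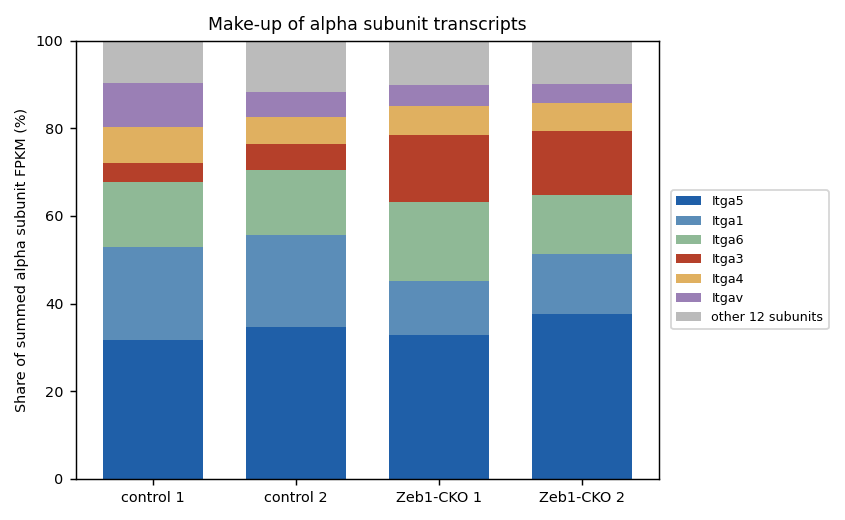
Share of the summed FPKM of 18 integrin alpha subunits (percent, stacked to 100) taken by each of 6 subunits and the other 12, in each of the 4 libraries. The band of Itga3 widens from 4.37% and 6.05% in the controls to 15.4% and 14.5% in the Zeb1-CKO libraries.

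Sequence before the start site is shown for Itga3, the called member with an entry in the RefSeq promoter table, for Itgb5, the member with the smallest p among those lower in Zeb1-CKO cells, and for Itgb1, the most abundant member. ZEB1 is known to bind the E-box CACCTG, read CAGGTG on the other strand. These letters were searched on both strands in the 250 bases before each start and are in capitals. The sequences are from RefSeq on GRCm38.p6, the assembly of mm10, written 5′ to 3′ on the strand of the gene. The window of Itga3 is trimmed to the bases before the start in the deposited table. It is chr11:95076802-95076964 on the minus strand, that of Itgb5 is chr16:33829415-33829664 on the plus strand, and that of Itgb1 is chr8:128685404-128685653 on the plus strand.
Itga3: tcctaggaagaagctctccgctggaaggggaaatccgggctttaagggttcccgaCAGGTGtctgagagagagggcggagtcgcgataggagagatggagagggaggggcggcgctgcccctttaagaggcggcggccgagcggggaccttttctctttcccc
Itgb5: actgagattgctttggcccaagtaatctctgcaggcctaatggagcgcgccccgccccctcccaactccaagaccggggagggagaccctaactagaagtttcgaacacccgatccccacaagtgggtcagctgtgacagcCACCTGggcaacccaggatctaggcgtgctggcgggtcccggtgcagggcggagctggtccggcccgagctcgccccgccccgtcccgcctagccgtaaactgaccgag
Itgb1: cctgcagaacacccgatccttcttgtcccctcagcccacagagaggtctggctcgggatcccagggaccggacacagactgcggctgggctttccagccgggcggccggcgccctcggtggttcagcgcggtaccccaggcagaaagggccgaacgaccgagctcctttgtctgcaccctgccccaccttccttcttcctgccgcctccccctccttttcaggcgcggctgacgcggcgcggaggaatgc
Itga3 holds the motif 195 bases before its RefSeq start, Itgb5 holds it 109 bases before, and Itgb1 does not hold these letters in this window. A further Itga3 start in the table, at 95069198, has none. Windows were given for 33 of the 47 members, 40 starts in all, and 7 of those 40 (17.5%) held the motif. Of all 32817 starts in the table, 17.2% held it. The share among members was thus near that of all promoters, and a match is a description of letters, not of binding.

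Itgb4, the beta4 subunit of the hemidesmosome integrin, rose from a low level. Its gene lies on chromosome 11, plus strand, from 115974709 to 116008412 in mm10. It was at 2.46 and 1.45 FPKM in controls and at 7.38 and 8.43 FPKM in Zeb1-CKO libraries, with no overlap. The mean of Itgb4 was 1.95 ± 0.711 in controls, against 7.90 ± 0.739 FPKM for Zeb1-CKO (SD, n = 2 libraries each), a 4.05-fold difference. The log2 fold change was 1.61 (SE 0.21, 95% interval 1.08 to 2.14), with limma's adjusted p at 0.0224. The call ended without Zeb1-CKO 1 (log2 fold change 1.70, adjusted p 0.126) or without Zeb1-CKO 2 (1.53, adjusted p 0.142), and without a filter (adjusted p 0.150). Set beside its partner Itga6, Itgb4 stood at 0.108 and 0.0640 of the Itga6 level in controls, against 0.216 and 0.375 in Zeb1-CKO libraries. Itgb4 shares 537 of its 7015 exon bases with B230344G16Rik on the opposite strand, in libraries made with a kit, SMART-Seq v4, that does not mark strand, and that gene had means of 0.550 FPKM in controls, against 0.303 FPKM in Zeb1-CKO cells. All 10 epithelial markers were higher in both Zeb1-CKO libraries than in both controls, beside 27.1% of all fitted genes. The list was drawn up with this rise already known, so that count is no independent result. Of the 10 markers, 9 were fitted, and all 9 had a control mean under 1 FPKM. They passed the filter only through the Zeb1-CKO libraries, where they were high. Epcam and Cldn4 among them were at 0 in a control. The part of these markers in the rises of Itga3 and Itgb4 was not tested.

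**Figure D4:**
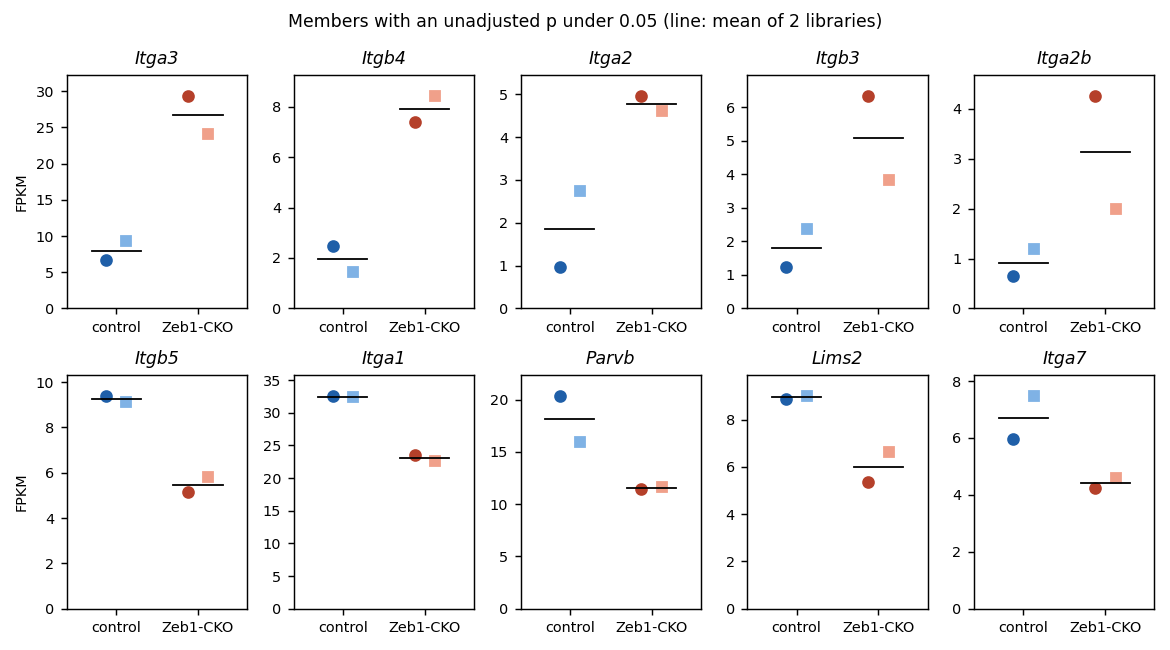
FPKM (linear axes from 0) in each library for the 10 members with an unadjusted p under 0.05, with circles for replicate 1, squares for replicate 2 and a line at the mean of each genotype. Itga3 and Itgb4 are the 2 called members, at 29.4 and 24.1 and at 7.38 and 8.43 FPKM in Zeb1-CKO libraries, and in all 10 panels the genotypes do not overlap.

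The genes of the platelet integrin alphaIIbbeta3 and of the collagen receptor subunit alpha2 were higher in Zeb1-CKO libraries without passing the test. Itga2b was at 0.645 and 1.20 FPKM in controls and at 4.26 and 1.99 FPKM in Zeb1-CKO libraries, with a log2 fold change of 1.06 (SE 0.32, limma's adjusted p 0.171). Itgb3, which also pairs with alphav in endothelium, was at 1.25 and 2.38 FPKM in controls and at 6.33 and 3.82 FPKM in Zeb1-CKO libraries, with a log2 fold change of 1.11 (SE 0.29, limma's adjusted p 0.128). Both were highest in Zeb1-CKO 1. Itga2, the alpha2 subunit, was at 0.959 and 2.74 FPKM in controls and at 4.96 and 4.60 FPKM in Zeb1-CKO libraries, with a log2 fold change of 1.09 (SE 0.32, limma's adjusted p 0.156). Without control 2, Itga2 passed, at a log2 fold change of 1.56 and an adjusted p of 0.0283. Platelet markers were read in the same libraries. The summed FPKM of 9 platelet markers was 6.59 and 7.56 in controls, against 32.4 and 14.5 in Zeb1-CKO libraries. Pf4 was at 3.03 and 1.84 against 11.5 and 6.74 FPKM. Of the 9, 5 were higher in both Zeb1-CKO libraries than in both controls, beside 27.1% of all fitted genes, and 4 overlapped. Treml1 was at 0 in control 1 and Gp6 at 0 in Zeb1-CKO 2. The part of platelet RNA in the levels of Itga2b, Itgb3 and Itga2 was not tested.

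Of the members with lower values in Zeb1-CKO libraries, Itgb5 had the smallest p. Itgb5 encodes the beta5 subunit of the vitronectin receptor alphavbeta5. It was at 9.38 and 9.13 FPKM in controls and at 5.14 and 5.82 FPKM in Zeb1-CKO libraries, which did not overlap. The log2 fold change of Itgb5 was -0.66 (SE 0.14, 95% interval -1.02 to -0.31), with limma's adjusted p at 0.0792. A short transcript, Gm38317, is 99.7% identical to Itgb5 over 343 bases and had means of 0.958 FPKM in controls, against 0.779 FPKM in Zeb1-CKO cells, so a small part of these reads could be split between them.

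Itga1, which encodes the alpha1 subunit of a collagen and laminin receptor, was at 32.5 and 32.4 FPKM in controls and at 23.6 and 22.6 FPKM in Zeb1-CKO libraries. Its 4 values fell into separate ranges by genotype, with a log2 fold change of -0.47 (SE 0.13, 95% interval -0.79 to -0.16) and limma's adjusted p at 0.129. Itga1 shares 685 of its 18599 exon bases with Gm49395 on the same strand, whose means were 8.19 FPKM in controls, against 3.50 FPKM in Zeb1-CKO cells. Itga7, a laminin receptor subunit of muscle cells, was at 5.96 and 7.47 FPKM in controls and at 4.24 and 4.58 FPKM in Zeb1-CKO libraries (log2 fold change -0.50, SE 0.17, limma's adjusted p 0.197). Itga8, which binds nephronectin, was at 4.85 and 4.70 FPKM against 3.86 and 3.06 FPKM (adjusted p 0.309 by limma). Itga9 was at 1.34 and 1.26 FPKM against 1.04 and 0.899 FPKM. Pericyte and smooth-muscle markers moved the same way: 11 of 13 were lower in both Zeb1-CKO libraries than in both controls and 2 overlapped. Among all fitted genes, 22.3% were lower in both. The part of these markers in the values of Itga1, Itga7 and Itga8 was not tested.

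The leukocyte integrins were low and were not fitted. Itgb2, the beta2 subunit shared by leukocyte integrins, was at 1.14 and 1.28 FPKM in controls and at 0.506 and 0.136 FPKM in Zeb1-CKO libraries, and its mean over all 4 was too low for the fit. Its alpha partners Itgal, Itgam, Itgax and Itgad were at or under 0.261 FPKM in every library. Itgae and Itgb7, which pair as the receptor of lymphocytes for E-cadherin, reached at most 0.109 and 0.357 FPKM. Microglial and leukocyte markers were present in the same libraries, with sums over 18 genes of 97.3 and 177 FPKM in controls, against 135 and 118 FPKM in Zeb1-CKO libraries. The defining leukocyte gene Ptprc was at 0.361 and 0.226 against 0.0349 and 0.0710 FPKM. Of the 18, 10 were lower in both Zeb1-CKO libraries, 3 were higher in both and 5 overlapped. Among all fitted genes, 22.3% were lower in both and 27.1% higher in both. Aif1 was at 0 in Zeb1-CKO 1, and the part of these markers in Itgb2 was not tested.

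Low values were also found for integrins of epithelia and of connective tissue. Itgb6, the epithelial partner of alphav, was at 0.0127 and 0.0502 FPKM in controls and at 0.332 and 0.395 FPKM in Zeb1-CKO libraries, all under the minimum for the fit. Itgb8 was at 0.101 and 0.309 FPKM in controls and at 0.318 and 0.651 FPKM in Zeb1-CKO libraries. The collagen receptor subunit genes Itga10 and Itga11 were at or under 0.647 FPKM, and Itgb2l at or under 0.255 FPKM. In all, 16 members were not fitted, 7 of them were listed at 0 in at least 1 library, and none exceeded 1.38 FPKM.

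The 4 remaining genes with Itgb symbols are not receptor subunits. Itgb1bp1 encodes ICAP1, which binds the beta1 tail and holds the receptor inactive. It was at 7.57 and 6.02 FPKM in controls and at 5.60 and 6.13 FPKM in Zeb1-CKO libraries, with overlapping genotypes (limma's adjusted p 0.637). Itgb3bp, which encodes a centromere protein despite its symbol, was at 1.91 and 1.43 FPKM against 0.862 and 0.986 FPKM (log2 fold change -0.47, limma's adjusted p 0.319). Itgb3bp is uncertain, since 398 of its 4632 exon bases overlap Pgm1 on the opposite strand, at means of 24.0 FPKM in controls, against 32.5 FPKM in Zeb1-CKO cells. A copy, Gm3507, is 95.4% identical to Itgb3bp over 483 bases, at means of 0.549 and 0 FPKM. Itgb1bp2, the muscle protein melusin, was at or under 0.884 FPKM and Itgbl1 at or under 0.0423 FPKM.

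Of the 16 adaptors, 14 were fitted and none was called by limma, with none higher and 2 of the 14 lower at an unadjusted p under 0.05, beside 10.5% and 7.35% of all fitted genes. Their median log2 fold change was 9.3e-06. The activators of integrins, talins and kindlins, did not pass the test. Tln1, the main talin, was at 27.3 and 29.6 FPKM in controls and at 26.4 and 24.4 FPKM in Zeb1-CKO libraries, with a log2 fold change of -0.16 (SE 0.13, 95% interval -0.49 to 0.17, limma's adjusted p 0.596). Tln1 stood 20.3 and 24.2 times above Tln2 in controls, against 27.6 and 20.8 times above it in Zeb1-CKO libraries. Fermt2, the kindlin of most adherent cells, was at 51.5 and 55.7 FPKM in controls and at 51.0 and 50.04 FPKM in Zeb1-CKO libraries (log2 fold change -0.08, 95% interval -0.40 to 0.23). The kindlin of blood cells, Fermt3, was at 0.912 and 2.096 FPKM against 2.88 and 1.42 FPKM. The epithelial kindlin Fermt1 was listed at 0 in both controls and was at 0.136 and 0.0163 FPKM in Zeb1-CKO libraries, so the kindlin in these libraries was mainly Fermt2.

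In the ILK, PINCH and parvin complex, which joins the beta tail to actin, no gene passed the test. Ilk was at 50.1 and 51.1 FPKM in controls and at 43.7 and 46.1 FPKM in Zeb1-CKO libraries, with a log2 fold change of -0.17 (SE 0.12, 95% interval -0.48 to 0.14). Ilk is uncertain, since 2106 of its 2744 exon bases overlap Taf10 on the opposite strand, which was at a mean of 8.09 FPKM in both genotypes. Lims1, which encodes PINCH1, was at 65.5 and 62.2 FPKM in controls and at 73.8 and 64.5 FPKM in Zeb1-CKO libraries (log2 fold change 0.11, 95% interval -0.23 to 0.45). Parva, the widely expressed alpha-parvin, was at 13.7 and 12.95 FPKM in controls and at 14.3 and 14.9 FPKM in Zeb1-CKO libraries (log2 fold change 0.12, 95% interval -0.21 to 0.45).

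Parvb and Lims2 had lower values in Zeb1-CKO libraries without passing. Parvb, beta-parvin, was at 20.3 and 15.9 FPKM in controls and at 11.5 and 11.6 FPKM in Zeb1-CKO libraries, with a log2 fold change of -0.60 (SE 0.16, 95% interval -1.002 to -0.20) and limma's adjusted p at 0.134. Lims2, which encodes PINCH2, was at 8.89 and 8.99 FPKM in controls and at 5.36 and 6.63 FPKM in Zeb1-CKO libraries, with a log2 fold change of -0.51 (SE 0.16, 95% interval -0.90 to -0.13) and limma's adjusted p at 0.172. The level of Parva relative to Parvb was 0.675 and 0.812 in controls, against 1.25 and 1.28 in Zeb1-CKO libraries, and that of Lims1 relative to Lims2 was 7.37 and 6.92 against 13.8 and 9.72. The ranges of both ratios were separate by genotype, and neither ratio was tested. Parvg, the parvin of blood cells, was at 1.21 and 1.38 FPKM in controls and at 0.510 and 0.716 FPKM in Zeb1-CKO libraries and was not fitted. As given above, 10 of 18 leukocyte and 11 of 13 pericyte markers were lower in the same libraries, beside 22.3% of all fitted genes. The part of these markers in Parvb, Lims2 and Parvg was not tested.

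Among the actin linkers and LIM-domain scaffolds, the values spread more within a genotype than between. Vcl, which encodes vinculin, was at 25.8 and 34.3 FPKM in controls and at 35.4 and 26.9 FPKM in Zeb1-CKO libraries, with a log2 fold change of 0.049 (95% interval -0.46 to 0.56). Vcl shares 2090 of its 8191 exon bases with Ap3m1 on the opposite strand, at means of 34.7 and 27.7 FPKM. Pxn, paxillin, was at 13.3 and 9.97 FPKM against 12.5 and 11.1 FPKM (log2 fold change 0.023, 95% interval -0.42 to 0.47). Zyx, zyxin, was at 28.7 and 26.6 FPKM against 28.2 and 26.2 FPKM (log2 fold change -0.023, 95% interval -0.35 to 0.31). Zyx shares 236 of its 5390 exon bases with Epha1 on the opposite strand, whose means were 1.15 FPKM in controls, against 9.26 FPKM in Zeb1-CKO cells. The sign of the difference of Vcl, Pxn and Zyx changed when single libraries were left out.

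The genes of adhesion signalling did not pass the test either. Ptk2, which encodes FAK, was at 15.5 and 13.3 FPKM in controls and at 16.4 and 16.6 FPKM in Zeb1-CKO libraries, with a log2 fold change of 0.19 (SE 0.14, 95% interval -0.16 to 0.54, limma's adjusted p 0.552). Bcar1, which encodes p130Cas, was at 31.1 and 36.0 FPKM in controls and at 32.3 and 38.9 FPKM in Zeb1-CKO libraries (log2 fold change 0.08, 95% interval -0.31 to 0.47). The intervals of Tln1, Fermt2, Ilk, Lims1, Parva, Zyx, Ptk2 and Bcar1 lie between -0.49 and 0.54 on the log2 scale.

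**Figure D5:**
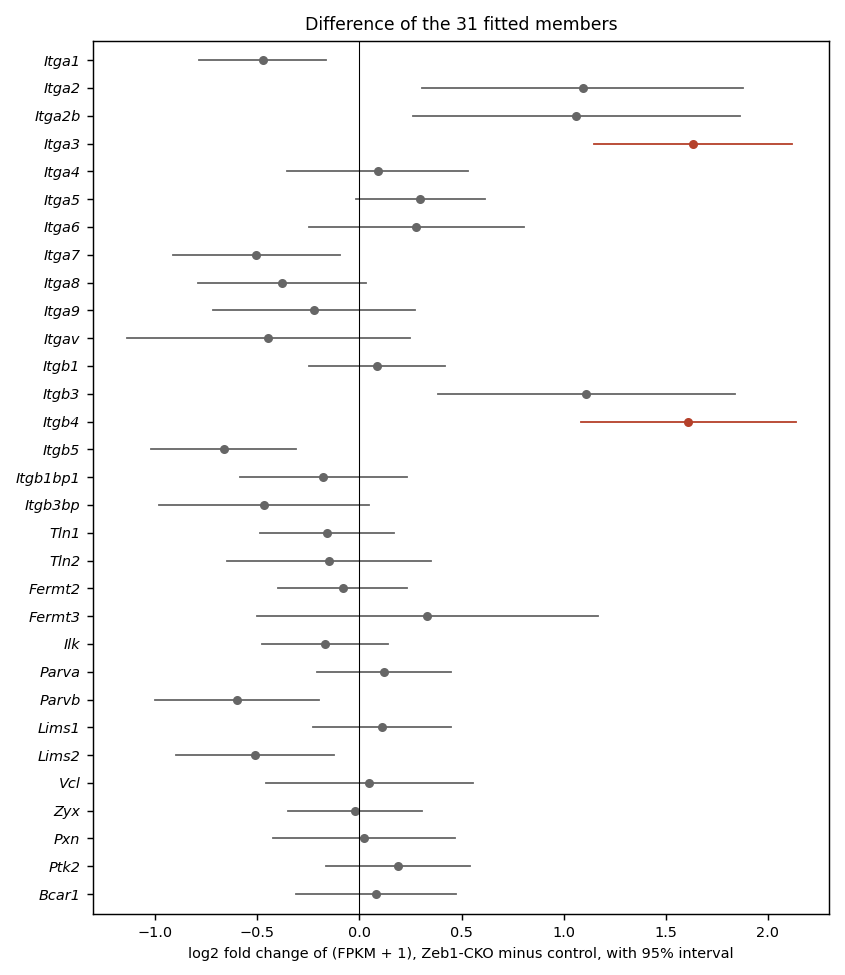
Log2 fold change of (FPKM + 1), Zeb1-CKO minus control, with its 95% interval from limma for the 31 fitted members, in red where the adjusted p was under 0.05. Only Itga3 at 1.64 and Itgb4 at 1.61 are red, and the adaptors at the bottom lie between -0.60 and 0.33.

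Other genes of the adhesion pathway were read from a list of 67, of which 63 were fitted. Of these, 1 was called higher, none was called lower, and 62 did not pass limma's threshold. Among all fitted genes, 2.23% were called higher and 0.901% lower. At an unadjusted p under 0.05, 9 of the 63 were higher and 3 lower, beside 10.5% and 7.35% of all fitted genes. The list's median log2 fold change was 0.09. The riser was Pak1, a kinase activated by Rac and Cdc42 at adhesion sites, which is named after its values were seen. With a control mean of 0.301 FPKM, Pak1 passed the filter only through the Zeb1-CKO libraries, where it was high. Pak1 was at 0.248 and 0.354 FPKM in controls and at 4.63 and 3.72 FPKM in Zeb1-CKO libraries (log2 fold change 1.99, limma's adjusted p 0.0102), and without Zeb1-CKO 1 or 2 no gene of the list was called. The most abundant genes of the list were the tetraspanin gene Cd81, at 379 and 286 FPKM in controls, against 308 and 352 FPKM in Zeb1-CKO libraries, and Csrp1, a LIM protein of actin bundles, at 214 and 206 against 250.5 and 276 FPKM.

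Ligands of integrins were read from a list of 37, of which 34 were fitted, 4 rose, 1 fell and 29 did not pass. Among all fitted genes, 2.23% were called higher and 0.901% lower. Of the 34 ligands, 2 passed the filter with a mean under 1 FPKM in 1 genotype. The list's median log2 fold change was -0.018, and 6 of its 34 fitted genes were higher and 6 lower at an unadjusted p under 0.05, beside the same 10.5% and 7.35% of all fitted genes. Npnt, which encodes nephronectin, the ligand of alpha8beta1, rose from 5.21 and 7.28 FPKM to 25.5 and 22.4 FPKM (log2 fold change 1.80, limma's adjusted p 0.0114). The call of Npnt ended without Zeb1-CKO 1 (adjusted p 0.0943) or 2 (adjusted p 0.0700).

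Other called genes encode ligands on cells. Cdh1, E-cadherin, the ligand of the integrin encoded by Itgae and Itgb7, rose from 0.156 and 0.0217 FPKM to 22.4 and 22.3 FPKM, with a log2 fold change of 4.43 and limma's adjusted p at 0.000603. Cdh1 is also in the epithelial marker list. With a control mean of 0.0887 FPKM, Cdh1 passed the filter only through the Zeb1-CKO libraries, where it was high. Madcam1, a ligand of alpha4beta7, rose from 8.18 and 8.01 FPKM to 18.8 and 17.6 FPKM (log2 fold change 1.08, limma's adjusted p 0.0191). Icam1, the ligand of the beta2 integrins, fell from 191 and 183 FPKM to 94.9 and 96.3 FPKM (log2 fold change -0.96, limma's adjusted p 0.0216). The calls of Madcam1 and Icam1 each ended when any 1 library was left out, with adjusted p from 0.0533 to 0.126 and from 0.0585 to 0.126. The most abundant ligands, the basement-membrane collagen genes Col4a1 and Col4a2, were at 307 and 393 against 335 and 317 FPKM and at 228 and 311 against 265 and 236 FPKM, so their genotypes overlapped.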

How the data were processed

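RNA was sequenced from 4 libraries, 2 per genotype. Trimmomatic 0.36, HISAT2 2.1.0, StringTie 1.3.3 and mm10 are listed, per the submitters' processing notes, and the annotation release is not given in the sources used here. Values in the deposited table are FPKM made by the authors, a unit read from the values and tools. Genes averaging 1 FPKM or more were tested by genotype alone on log2(FPKM + 1), using limma 3.58.1 in R 4.3.3 with a mean-variance trend, and p-values were adjusted by Benjamini-Hochberg over all 13651 genes. Fold changes on this scale understate the change of low genes. Depth came from genes with 1 transcript over 600 bases, where 13.7% to 17.6% of values lay within 0.02 of a whole step, against 4% at random. Where a lower depth that divides the best one evenly also placed many values on whole steps, the lower was taken. An estimate could therefore be too low by that factor.

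Members and lists were chosen with earlier results of these data known. Members were given in full if called, at an unadjusted p under 0.05, at a mean of at least 20 FPKM, or among 10 core adhesion genes; other genes if called with a mean of at least 5 FPKM, or among the 2 most abundant of a list. Further genes (Pak1, Ptprc, Cd9, Tgfb1i1, those overlapping members in exons, and markers at 0) were chosen after their values were seen. Of the ligands counted as called higher, 1 is not reported here. A list of 9 Müller glia and astrocyte markers summed to 363 and 369 FPKM in controls, against 396 and 457 FPKM in Zeb1-CKO libraries. Of these, 5 were higher in both Zeb1-CKO libraries, 1 was lower in both and 3 overlapped. A list of 15 retinal neuron markers summed to 104 and 35.3 FPKM in controls, against 65.6 and 101 FPKM in Zeb1-CKO libraries, with 2 higher in both, 1 lower and 12 overlapping. Counts over marker lists include genes that were not fitted. Gene spans and exon overlaps are from GENCODE M21, where 45 of 47 versioned identifiers matched (Fermt3 and Lims2 did not). Copies were sought with BLAST 2.17.0 at 95% identity over 80% of a transcript. Figures used matplotlib 3.10.9.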

Additional observations from a re-analysis of the deposited data

How the results depend on the processing

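With the replicate block, 1 member was called higher (Itga3; Itgb4 at an adjusted p of 0.0520), no member lower, and no ligand lower. Deviations of same-numbered libraries correlated at -0.12 over 13651 genes, and nothing in the labels pairs them. A replicate block with crossed numbers, chosen after seeing the data, gave 3 members and 3 pathway genes higher. The block moved the calls over all genes from 304 higher and 123 lower to 155 and 38. Leaving out 1 library gave 0 to 3 members, 0 to 3 pathway genes and 2 to 4 ligands higher, and 0 ligands lower each time, from fits with fewer samples in which a lone library is assumed to vary like the others. Over all genes, 48 to 238 were then higher and 15 to 64 lower. Without a filter, 0 members, 0 pathway genes and 2 ligands were higher and 0 ligands lower, among 38986 genes tested; 70 genes were then higher and 15 lower. With a mean of at least 5 FPKM, 1 member was higher, since Itgb4 was not tested, and 0 pathway genes. At an adjusted p under 0.1, 1 member (Itgb5) and 1 pathway gene (Tgfb1i1) were lower, 4 pathway genes higher and 2 ligands lower, with 553 higher and 306 lower over all genes. Pathway genes called higher numbered 2 with scaling by the median of log ratios, with TPM, with quantile normalization and with a robust trend, the second being Cd9, and ligands called lower numbered 2 with median scaling and with quantile normalization. The cause of these differences was not tested.

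No member was called lower at an adjusted p under 0.05 in any alternative run. Direction reversed where the difference was near 0, and for Itga6 (log2 fold change 0.28) without its high library, Zeb1-CKO 1. With single libraries left out, the log2 fold change ranged from -0.15 to 0.25 for Vcl, from -0.17 to 0.22 for Pxn, from -0.077 to 0.030 for Zyx, from -0.050 to 0.21 for Bcar1 and from -0.012 to 0.57 for Itga6. Pxn was at -0.022 with quantile normalization and Zyx at 0.0079 with TPM. Alternatives for counts were not run, since FPKM are not counts. Of 444 alternative values of 28 named genes, 408 kept their direction and their side of the threshold, 22 lost a call, 3 gained one and 11 reversed. Runs that changed only the block, filter, trend or threshold left the log2 fold change as it was, so direction could not reverse in them. Most of the 28 genes were not called in the main fit and could not lose a call. The count of 408 is thus no measure of stability. Itga3 stayed between 1.29 and 1.84 and Itgb4 between 0.89 and 2.00 on the log2 scale. Depth limits members under 1 FPKM, where control 2, with the lowest estimated depth, would be least precise.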
